A study of Mus musculus with 8 samples.

Results

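Gene deserts are long stretches of the genome without protein-coding genes. The gene desert regions described here were the autosomal regions of a shared accessibility table that overlapped no protein-coding gene body and lay more than 100 kb from the nearest end of a protein-coding gene, with genes placed from RefSeq on GRCm38.p6. The rule used position alone and no measured value. It selected 18649 of the 148664 regions (12.5%), spread over all 19 autosomes and over 1193 gaps between neighbouring protein-coding genes. A low-count filter kept 16224 of them (87.0%) for the tests, against 94.4% of all regions. Chromatin accessibility had been measured by ATAC-seq, in which the transposase Tn5 cuts open DNA and inserts sequencing adapters, in mouse melanoma cell lines grown from lymph node cell suspensions of mice with cutaneous melanoma. Lines 112 and 113 carry the deleted allele of Stat3 (Stat3Δ, labelled STAT3 knockout). Lines 119 and 73 carry the loxP-flanked, undeleted allele (Stat3fl, labelled wild type). Each line gave 2 libraries of 50000 cells. The growth protocol calls the lines primary pools while the sample descriptions call each a clone, and the sources used here give neither the driver of the melanomas nor of the Stat3 deletion. No treatment is named. The sample titles also carry a p number whose meaning is not stated, 18, 44, 14 and 68 for lines 112, 113, 119 and 73. It differs by line and cannot be told apart from the line.

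STAT3 is a transcription factor that cytokine and growth factor receptors activate through Janus kinases. The study's title ties it to C/EBP factors and to the pigmentation genes under MITF. Accessible DNA far from genes is commonly made of enhancers, which can contact a promoter over long distances, together with promoters of noncoding RNAs and sites bound by architectural proteins. Enhancers differ between cell types and cell states more than promoters do, and many developmental regulators, Sox9, Myc and Zeb2 among them, are flanked by deserts that hold their distant enhancers.

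Library totals ran from 2697546 to 7464336 counts. Line 112 replicate 2 stood apart: it was the shallowest and had a peak over 5.22% of the gene desert regions, against 14.8% in the other library of its line. Its median count per gene desert region was 7, and the medians of the other libraries ran from 5 to 22, so a single region was usually measured by few counts. A region at an end of the Stat3 gene was accessible in all lines, with line means from 18.2 CPM (counts scaled to a common library size) upward. It lies outside the part known to be deleted, so it does not test the labels. Of the melanocyte lineage markers, Sox10 was low in line 73 alone (3.09 CPM against 17.6 to 27.9 in the other lines). So were Pax3 (6.28 CPM against 30.85 to 53.57) and Ednrb (2.49 CPM against 9.88 to 36.48). Dct, Mlana and Tyr were lower in both wild-type lines than in both knockout lines, with 22.8, 62.5, 3.79 and 0.534 CPM at Dct and 10.4, 10.2, 0.745 and 0.256 CPM at Mlana for lines 112, 113, 119 and 73 in this order. Mitf (39.1 CPM) and Pmel (74.6 CPM) were highest in line 73. The summed level of 7 fibroblast markers was 138 CPM in line 73 and 48.8 to 51.5 CPM in the other lines. Pdgfrb (48.1 CPM against 3.64 to 12.9), Col1a2 (32.2 CPM against 0.596 to 3.55) and Col1a1 (35.7 CPM against 19.8 to 25.6) carried this sum, while Pdgfra was low in both wild-type lines (1.83 and 1.22 CPM against 13.8 and 15.9 in the knockout lines). In bulk libraries, a smaller share of cells with an open region and less access in each cell cannot be told apart. Whether the marker differences bear on the gene desert values was not tested.

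A small part of the gene desert regions lay at the starts of noncoding genes. Of the RefSeq promoter windows (300 bases around a start, GRCm38.p6), 240 windows of 219 genes overlapped 220 gene desert regions (1.18%). Peaks were called there in all 8 libraries at 8 regions (3.64%), against 1.11% of all gene desert regions. The windows printed below belong to the regions with the most signal among those open in every library (Gm26901 and 2210408F21Rik), and to a region higher (1700019J19Rik) and a region lower (Gm35551) in both knockout lines. They were chosen after their values were seen. Capitals mark letters of GGGCGG, the box bound by SP and KLF factors, on either strand, and in the window of Gm35551 of TTCCNGGAA, the palindrome bound by STAT factors. The window of 1700019J19Rik holds none of the motifs searched.
Gm26901: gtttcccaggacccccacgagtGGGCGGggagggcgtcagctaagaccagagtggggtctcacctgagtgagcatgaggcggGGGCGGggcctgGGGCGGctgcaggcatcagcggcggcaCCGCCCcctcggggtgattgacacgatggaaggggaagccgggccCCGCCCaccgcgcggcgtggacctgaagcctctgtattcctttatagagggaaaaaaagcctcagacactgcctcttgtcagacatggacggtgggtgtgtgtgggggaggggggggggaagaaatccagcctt
2210408F21Rik: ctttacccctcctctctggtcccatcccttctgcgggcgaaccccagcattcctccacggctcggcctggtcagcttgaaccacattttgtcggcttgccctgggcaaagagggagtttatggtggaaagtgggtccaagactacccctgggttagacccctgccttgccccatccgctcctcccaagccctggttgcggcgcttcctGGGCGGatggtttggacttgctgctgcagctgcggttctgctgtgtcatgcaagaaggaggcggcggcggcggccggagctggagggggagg
1700019J19Rik: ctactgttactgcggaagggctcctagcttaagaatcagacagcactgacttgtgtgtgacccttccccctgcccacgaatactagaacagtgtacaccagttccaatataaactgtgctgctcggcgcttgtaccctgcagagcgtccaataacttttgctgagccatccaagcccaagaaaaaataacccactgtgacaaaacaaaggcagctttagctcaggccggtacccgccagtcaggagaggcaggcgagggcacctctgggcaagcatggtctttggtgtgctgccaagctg
Gm35551: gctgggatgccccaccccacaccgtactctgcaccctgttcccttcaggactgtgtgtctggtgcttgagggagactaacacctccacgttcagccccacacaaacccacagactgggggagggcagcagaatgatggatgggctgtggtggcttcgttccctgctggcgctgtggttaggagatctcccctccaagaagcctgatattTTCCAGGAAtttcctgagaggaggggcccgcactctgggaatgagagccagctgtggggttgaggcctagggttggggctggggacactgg

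These windows are at chr1:7398047-7398346 (minus strand), chr6:31220101-31220400 (plus strand), chr9:14089827-14090126 (plus strand) and chr17:84044537-84044836 (minus strand). The window of Gm26901 is 65.7% G and C with 18 CpG dinucleotides and holds GGGCGG 5 times. The median window inside a gene desert region was 49.0% G and C with 4 CpGs, and the median of all 32851 promoter windows was 52.7% with 7 CpGs. The AP-1 heptamer TGANTCA, bound by Fos and Jun factors, stood in 25 of the 126 windows that lay wholly inside a gene desert region (19.8%) and in 7.81% of all windows. GGGCGG was in 20.6% of the desert windows and in 35.7% of all windows. The STAT palindrome was in 1 desert window (0.794%) and in 1.15% of all windows. The M-box TCATGTG, a site of MITF, was in 7.94% against 3.77%, the E-box CACGTG in 6.35% against 7.15%, and the C/EBP letters TTGCNNAA in 12.7% against 10.8%. All letters were searched on both strands, and a match describes the letters only. The desert windows all lay inside regions of the accessibility table, while the full set of windows was not restricted to it. The sets thus differ in more than distance from genes.

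Gene desert regions also held 9 of the 1005 miRNA hairpins of the RefSeq table, and some of their mature sequences are shown because 2 of the regions, those of Mir802 and Mir344d-2, differed between every knockout and every wild-type line. The seed, bases 2 to 8, is in capitals.
mmu-miR-802-5p: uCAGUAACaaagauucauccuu
mmu-miR-802-3p: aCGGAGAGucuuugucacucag
mmu-miR-137-3p: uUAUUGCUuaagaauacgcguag
mmu-miR-344d-2-5p: aGUCUGGUugcuggcuauauucca
mmu-miR-344d-3-5p: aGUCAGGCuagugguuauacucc
mmu-miR-344c-5p: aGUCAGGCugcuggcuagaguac
mmu-miR-344-5p: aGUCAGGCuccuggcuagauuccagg

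The seed GUCAGGC was shared by 5 mature sequences of the miR-344 family, and miR-344d-2-5p differed from them with GUCUGGU. The hairpins of that family lie in 1 gap on chromosome 7, so their regions are neighbours, and reads from near-identical copies may have been split between them.

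Gene desert regions were less accessible than regions near genes, and they differed more between the 4 lines. Their median level was 4.26 CPM per kb of region, against 5.36 at 10 to 100 kb from a gene end, 6.24 at 1 to 10 kb, 7.57 within 1 kb and 6.47 inside genes. The fall was gradual, since regions just inside the distance threshold (100 to 110 kb) had a median of 4.72 and those just outside it (90 to 100 kb) 4.75. Beyond 1000 kb the median was 3.44. Median region widths were close, at 552 bp in the deserts and 584 bp in genes. Of the gene desert regions 1176 (6.31%) reached a mean of 10 CPM, against 17.2% of all regions.

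The decline with distance was not alike in the 4 lines. Inside genes the line medians lay between 5.41 and 6.21 CPM per kb. For lines 112, 113, 119 and 73 in this order, the desert medians were 3.51, 2.77, 4.84 and 2.40. Beyond 1000 kb they were 2.59, 2.11, 4.67 and 1.31, so the wild-type line 119 stayed near its level at 10 to 100 kb while the other wild-type line fell furthest. Both knockout lines lay between the wild-type lines in each distance band beyond 100 kb. The shared table was built from regions that mostly carry a peak in some library, and line 119 supplied peaks at more of them than any other line, a property of the list that moves with its level.

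**Figure D1:**
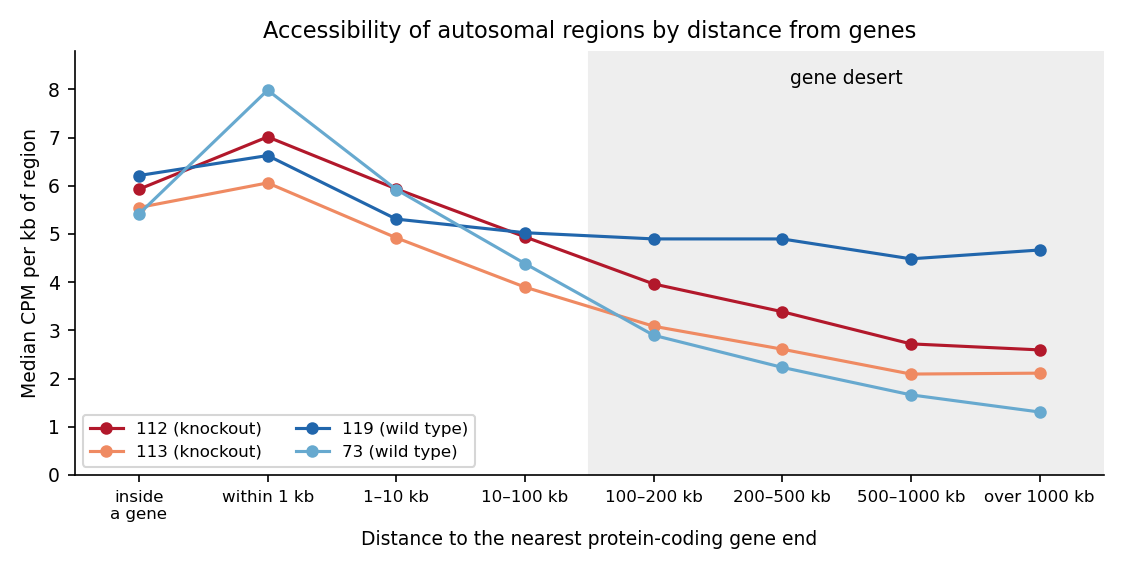
Median accessibility (CPM per kb of region, linear axis) of autosomal regions against distance to the nearest protein-coding gene end, 1 line of points per cell line, with the gene deserts shaded. Line 119 lies between 4.48 and 4.90 in the desert bands, while line 73 falls to 1.31 beyond 1000 kb.

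Gene desert regions took 6.70% of all counts in both libraries of line 112. Line 113 had 6.33% and 6.26%, line 119 had 9.49% and 9.17%, and line 73 had 5.75% and 5.90%. Line 119 was above all the others, line 73 was below them, and the knockout lines lay between. This order, 119, 112, 113 and 73, was also the order of the p number in the titles from lowest to highest, as was the order of the desert medians, and the part of that number was not tested. The knockout mean was 6.50% ± 0.284 (SD, n = 2 lines) and the wild-type mean 7.58% ± 2.48 (SD, n = 2 lines). The difference of -1.08 percentage points was smaller than the spread between the wild-type lines (exact permutation test over lines, two-sided, p = 1.0). With 2 lines against 2 the smallest p this test allows is 0.333.

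Peak calls gave the same order at the top. Gene deserts held 7.70% and 5.18% of the autosomal peaks of line 112. The shares were 8.98% and 9.38% for line 113, 12.6% and 12.2% for line 119, and 8.49% and 8.72% for line 73. The difference between the genotypes was -2.70 percentage points (exact permutation test over lines, two-sided, p = 0.667). Libraries had between 19810 autosomal peaks (line 112 replicate 2, the shallowest) and 92507 (line 119 replicate 1, the deepest). Among the 20000 highest scoring peaks of each library (all 19810 in line 112 replicate 2) the line means were 5.98%, 7.41%, 12.0% and 6.61%, so line 119 remained highest when the number of peaks was held nearly equal. The score is the authors' own value per peak.

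**Figure D2:**
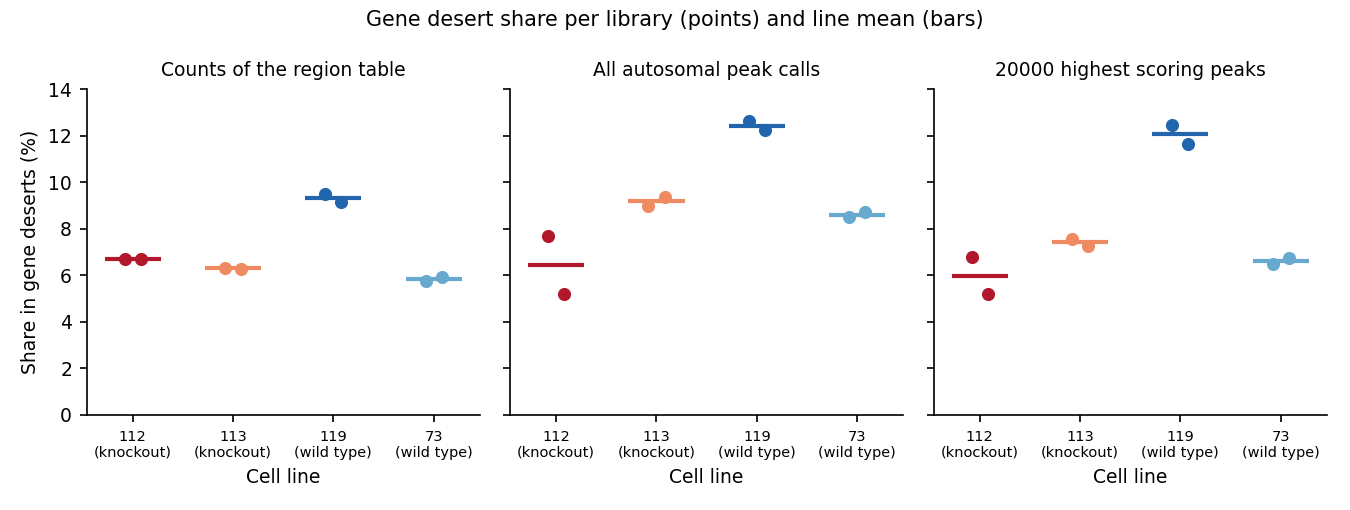
Share (%) of counts, of autosomal peak calls and of the 20000 highest scoring peaks that lies in gene deserts, with a point per library and a bar at each line's mean. Line 119 is highest in all 3 panels, at 9.33%, 12.4% and 12.0%.

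Few gene desert regions were open in every line. A peak in all 4 lines was found at 615 gene desert regions (3.30%), against 13.2% of all regions, and a peak in all 8 libraries at 207 (1.11%), against 12.4% of the regions inside genes. Peaks of line 119 alone covered 6397 (34.3%; 23.3% of all regions), of line 73 alone 2012 (10.8%; 10.5%), of line 113 alone 1566 (8.40%; 7.11%) and of line 112 alone 271 (1.45%; 1.31%). Both wild-type lines and neither knockout line had a peak at 2155 (11.6%; 11.5% of all regions). Both knockout lines and neither wild-type line had one at 423 (2.27%; 2.16%). Line 112 called the fewest peaks, which limits every pattern that requires one from it. No peak of any library overlapped 2094 gene desert regions (11.2%).

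Levels across gene desert regions were less alike between lines than levels inside genes. Over the 16224 tested gene desert regions, Pearson's r of log2 CPM averaged 0.869 for libraries of 1 line, 0.668 for lines 112 and 113, and 0.288 for lines 119 and 73. For a knockout against a wild-type line it lay between -0.000691 (113 and 73) and 0.320 (112 and 119). Over the 77948 tested regions inside genes the averages were 0.936, 0.837 and 0.624, and the mixed pairs lay between 0.537 and 0.646. Regions at 10 to 100 kb from a gene end were nearer to the deserts. Their averages were 0.888, 0.712 and 0.385, and the mixed pairs lay between 0.167 and 0.434. The points share libraries, and the lower levels of gene desert regions leave more counting error in each value, so these correlations are descriptions. Strong regions differed as well. Among regions with a mean of at least 10 CPM, the median SD of log2 CPM over the 4 line means was 1.27 in the deserts and 0.574 over all regions.

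When the lines were compared in pairs (edgeR quasi-likelihood test on the 8 libraries, Benjamini-Hochberg adjustment over 140329 regions, threshold 0.05), 14740 gene desert regions (90.9%) passed in at least 1 of the 6 pairs, against 88.1% of all regions. These p-values measure the spread between libraries of a line, which the labels call biological replicates without saying that they were separate cultures. Line 112 was higher than line 119 at 17.5% of the gene desert regions (22.2% of all regions) and lower at 33.5% (23.5%). Line 113 was higher than line 119 at 22.2% (30.2% of all regions) and lower at 42.3% (28.8%). Against both knockout lines, then, line 119 was higher at a larger share of gene desert regions than of all regions.

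Against line 73 the direction was the other way round. Line 112 was higher than line 73 at 29.1% of the gene desert regions (23.8% of all regions) and lower at 22.3% (26.1%). Line 113 was higher than line 73 at 30.3% (25.8%) and lower at 27.9% (26.5%). Between the wild-type lines, line 119 was higher than line 73 at 40.6% (27.5% of all regions) and lower at 17.6% (29.4%). The pair with the fewest calls was that of the knockout lines, with line 112 higher than line 113 at 8.98% (8.24%) and lower at 12.3% (15.6%). Scaling by total counts turned this to 16% higher and 7.69% lower, and gave 35.7% and 17.7% for line 112 against line 73. The median log2 difference over gene desert regions was -0.44 for line 112 against 119, -0.66 for 113 against 119, 0.56 for 112 against 73, 0.15 for 113 against 73, 0.26 for 112 against 113 and 0.70 for 119 against 73. The medians over all regions were between -0.10 and 0.10. The pairs share lines and are not independent of each other.

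**Figure D3:**
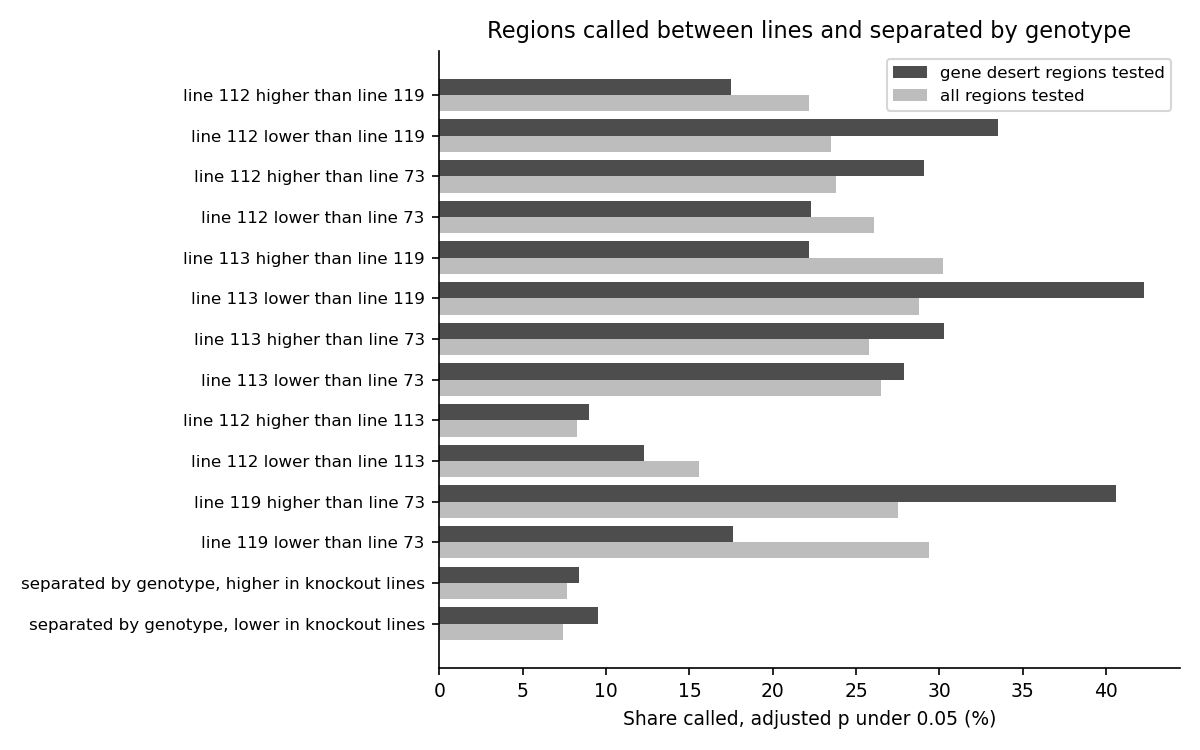
Share (%) of regions past an adjusted p of 0.05 in each direction, for the tested gene desert regions (dark bars) and for all tested regions (light bars). The longest dark bars are line 113 lower than line 119 (42.3%) and line 119 higher than line 73 (40.6%).

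The genotype itself was tested with the line as the unit, on counts summed per line, 2 knockout against 2 wild-type lines. No gene desert region passed (0 of 16224, smallest adjusted p 0.143, edgeR quasi-likelihood test), and the share called over all 140329 regions was 0.0%. Without adjustment 4079 gene desert regions (25.1%) had a p under 0.05, 1787 with a higher and 2292 with a lower knockout level, and the share over all regions was 16.9%. The Wald test of DESeq2 called 1236 of the 9953 gene desert regions that it gave an adjusted p (12.4%), against 6.45% of all regions with one. limma-voom, which took lines as a random effect, called 54 of 16224 (0.333%), against 0.339% of all regions. The median log2 difference, knockout over wild type, was -0.47 over gene desert regions and -0.09 over all regions.

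A weaker criterion asked whether each knockout line differed from each wild-type line in 1 direction (adjusted p under 0.05 in all 4 contrasts), and such regions are called separated here. It was met by 1357 gene desert regions that were higher in both knockout lines (8.36%; 7.64% of all regions) and by 1545 that were lower (9.52%; 7.41%). The share of higher regions was near that of all regions, and the share of lower regions was somewhat above it. Both the shares and their split depended on the count filter, as given with the alternatives below. The criterion describes these 4 lines and uses the spread between libraries, not between lines of a genotype.

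The 5 gene desert regions at the top of the p ranking in each direction showed what such a difference looks like in single libraries. They were chosen for their small p, so a lack of overlap between the genotypes largely follows from the choice and is a description. A region between Nxph1, which encodes a neurexin ligand, and Ndufa4 (chr6:9552991-9553607, 303372 bp from Nxph1) had 18.4 and 10.5 CPM (line 112) and 18.8 and 19.8 CPM (line 113). Line 119 had 0.129 and 0 CPM there, and line 73 had 0 and 0.556 CPM. All 4 knockout libraries were above all 4 wild-type libraries. The wild-type libraries held 3 counts in all, so the ratio of depth-scaled counts, 122, had an exact 95% interval from 41.3 to 595 for counting error alone. A region between Cntn5, a neuronal adhesion gene of the contactin family, and Jrkl (chr9:11915092-11915819, 1010317 bp from Cntn5) had 20.7, 11.1, 24.5 and 23.7 CPM in the knockout libraries and 0.259, 0, 0.512 and 0.278 CPM in the wild-type libraries. Its groups did not overlap either (log2 difference 6.24 ± 1.07 SE, adjusted p 0.143, edgeR quasi-likelihood test).

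The remaining 3 regions with higher knockout levels behaved alike. The region in the gap of Flrt2, an axon guidance and adhesion gene, and Galc (chr12:97920025-97920626) had 29.8, 14.2, 39.6 and 27.8 CPM in the knockout libraries. It had 0.776, 0.338, 1.54 and 0.556 CPM in the wild-type libraries. The region beside Satb1, which encodes a chromatin organiser (chr17:52154935-52155487), had 12.3, 8.31, 24.7 and 24.9 CPM in the knockout libraries and at most 0.512 CPM in the wild-type libraries. It begins a stretch of 6 gene desert regions in which line 73 had 7 counts and line 119 had 24. Whether DNA is missing there was not tested. The region between Cbln2 and Socs6, a member of the suppressor of cytokine signalling family (chr18:88367189-88368135), had 19.3, 9.85, 27.9 and 33.4 CPM against 0.259 to 1.02 CPM. In each of these regions line 112 replicate 2 gave the lowest knockout value, and knockout and wild-type libraries did not overlap.

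Of the 5 regions with lower knockout levels, the one between Eepd1 and B3gat1, which encodes a glucuronyltransferase that makes the HNK-1 epitope of neural crest cells (chr9:26518580-26519142, 214581 bp from B3gat1), had 0.698, 2.46, 0.453 and 1.21 CPM in the knockout libraries. Line 119 had 29.3 and 30.4 CPM, and line 73 had 24.3 and 30.8 CPM. The wild-type lines were alike here, and the log2 difference was -4.66 ± 0.88 SE (adjusted p 0.143, edgeR quasi-likelihood test). A region between Bod1l and Gm46911 (chr5:42155524-42156634) had 0.698 to 2.42 CPM in the knockout libraries and 25.0 to 33.3 CPM in the wild-type libraries. One beside Dkk2, which encodes a secreted inhibitor of Wnt signalling (chr3:131868121-131869008), had 0.923 to 2.18 CPM against 18.9 to 41.0 CPM, with line 73 above line 119. One beside the homeobox gene En1 (chr1:120757280-120757876) had 1.63, 4.62, 3.85 and 3.63 CPM against 32.7, 32.3, 47.9 and 46.7 CPM. The last, between Gas1, a hedgehog co-receptor gene, and Dapk1 (chr13:60431382-60431916), had 0.4655 to 2.16 CPM against 15.2 to 36.1 CPM. At all 5 regions the groups of libraries did not overlap.

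**Figure D4:**
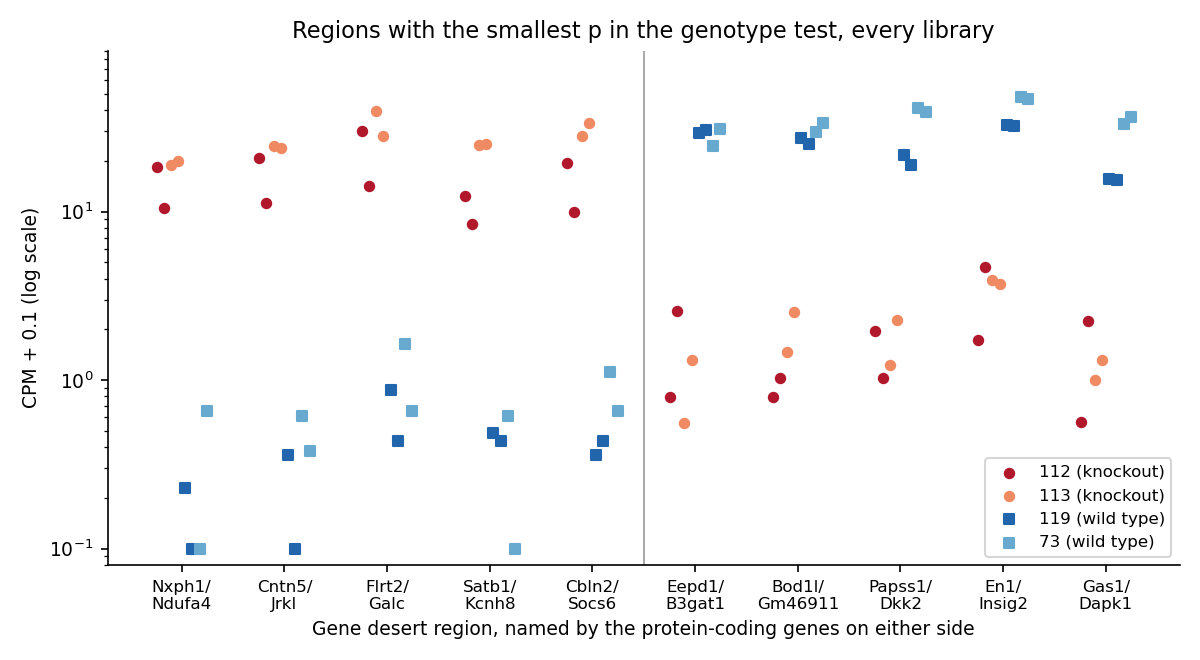
Level in every library (CPM plus a small constant so that 0 can be drawn, log axis) of the 5 gene desert regions ranked first by p in each direction, named by the genes on either side. Circles are knockout and squares wild-type libraries. At all 10 regions the circles and squares do not overlap, which largely follows from the choice by p. The adjusted p was 0.143 at each (edgeR quasi-likelihood test).

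The strongest gene desert regions were open in nearly all lines, with exceptions in line 73. The highest mean, 56.8 CPM, was at chr2:173419704-173420446 between Pmepa1, a TGF-beta-induced gene, and 1700021F07Rik, with 62.4, 44.3, 88.6 and 83.2 CPM in the knockout libraries and 61.0, 62.3, 21.5 and 30.8 CPM in the wild-type libraries. The next, at chr1:7397764-7398442 (53.4 CPM), covered the start of Gm26901 whose window is printed above, with 57.0, 41.6, 64.1 and 64.1 CPM in the knockout libraries and 39.6, 39.3, 59.7 and 62.0 CPM in the wild-type libraries. The groups overlapped there (log2 difference 0.19 ± 0.56 SE, adjusted p 0.929, edgeR quasi-likelihood test). Of the 8 strongest, 7 had a peak in all 8 libraries. The exception lay between Trabd2b and the forkhead gene Foxd2 (chr4:114779650-114780226), where line 73 had 2.56 and 2.50 CPM, line 119 had 52.99 and 47.1 CPM, and the knockout libraries had 61.7, 37.9, 91.3 and 79.6 CPM. None of the 8 passed the genotype threshold in the edgeR quasi-likelihood test with lines as units (adjusted p 0.467 to 0.984).

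The most even of the gene desert regions with a mean of at least 10 CPM was at chr13:82892721-82893445, 610572 bp from Mef2c, a transcription factor gene of muscle, neurons and neural crest. Its libraries had 21.9, 14.2, 23.6 and 16.2 CPM in the knockout lines and 16.9, 15.4, 15.1 and 18.9 CPM in the wild-type lines. A region beside Gli3, a hedgehog effector gene (chr13:15845746-15846295), had line means of 12.8, 15.8, 14.8 and 15.1 CPM. The other 3 of the 5 most even regions lay at chr13:46161176-46162429, chr11:22643920-22644499 and chr13:90515738-90516365, and the SD of log2 CPM over lines was at most 0.139 in all 5. They were chosen for evenness, so their likeness is a description.

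The 5 tested regions farthest from any protein-coding gene lay between Celf4 and Pik3c3 on chromosome 18 and between Olfm4 and Pcdh17 on chromosome 14. The farthest (chr18:27994068-27994571) was 2239548 bp from Celf4 and had 0.233, 0.923, 1.81 and 2.18 CPM in the knockout libraries and 3.36, 2.70, 0.768 and 0 CPM in the wild-type libraries. At chr14:82243243-82243848, 2199715 bp from the protocadherin gene Pcdh17, line 119 had 16.8 and 19.6 CPM and line 73 6.40 and 10.3 CPM, against 1.81 to 2.77 CPM in the knockout libraries, which did not overlap with them. This region was separated, with adjusted p 0.189 for the genotype (edgeR quasi-likelihood test). The other 3 had line means of 0.256 to 8.93 CPM.

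Regions in which a single line differed from each of the other 3 lines (adjusted p under 0.05 in all 3 contrasts, edgeR quasi-likelihood test) were more common in the wild-type lines. A line meets this only where it also differs from the line most like it. The knockout lines were the most alike pair (mean r 0.668, against 0.288 for the wild-type lines), so these counts do not describe the genotypes. Line 119 alone had a peak at 34.3% of the gene desert regions (23.3% of all regions). Line 119 was higher than each other line at 3020 gene desert regions (18.6%; 11.0% of all regions) and lower at 318 (1.96%; 4.86%). Line 73 was higher at 1940 (12.0%; 13.2%) and lower at 2162 (13.3%; 10.2%). Line 113 was higher at 1261 (7.77%; 7.26%) and lower at 496 (3.06%; 2.65%). Line 112, which included the shallowest library, was higher at 227 (1.40%; 1.76%) and lower at 131 (0.807%; 1.28%).

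For line 119 the largest such difference (among regions with at least 5 CPM in the line) was at chr3:81724549-81725067 between Pdgfc, a growth factor gene, and Ctso, with 23.0 and 25.5 CPM in line 119 and 0.278 to 1.40 CPM in the other 6 libraries. For line 73 it was at chr5:111890750-111891252 between Mn1, a transcriptional regulator gene, and Cryba4, the nearer of the flanking genes, with 39.4 and 39.7 CPM against 0.338 to 2.90 CPM. For line 113 it was at chr12:7636500-7637160 in the gap of Klhl29 and Apob, with 28.8 CPM in both libraries against 0.338 to 2.77 CPM. For line 112 it was at chr14:114820924-114821570, inside the noncoding gene 4930524C18Rik, with 38.4 and 19.1 CPM against 0.556 to 1.81 CPM. In each case both libraries of the line stood above all the others, which partly follows from how these regions were chosen.

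Regions low in a single line were also found. At chr4:8374569-8375212 beside Car8, a carbonic anhydrase-related gene, line 73 had 0.256 and 1.67 CPM and the other libraries had 26.2 to 61.2 CPM. At chr12:7212804-7213411, 764218 bp from Apob, it had 1.02 and 0 CPM against 18.2 to 48.6 CPM. Line 112 was lowest at chr3:5811084-5811640 beside Pex2 (0.4655 and 0.616 CPM against 5.56 to 17.8 CPM), and line 113 at chr3:151298242-151298830 beside the adhesion receptor gene Adgrl4 (0.906 and 0.484 CPM against 3.69 to 14.7 CPM).

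Separated regions that were neighbours had the same direction more often than opposite directions. Of 2117 neighbouring pairs of separated gene desert regions of the same gap, 1556 (73.5%) had the same direction, and 71.5% did after an offset for 10 Mb windows was taken out. Separated regions were found in 785 of the 1193 gaps. Of the 217 gaps with at least 5 of them, 60 (27.6%) held a single direction, which was higher in the knockout lines in 28 and lower in 32. Regions of a gap share their surroundings and are not independent. Neither share was set against regions outside the deserts, and whether separated regions lie closer together than others was not tested.

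The gap between Dcc, the netrin receptor gene, and Mex3c (chromosome 18) held 16 separated regions out of 31 tested, all higher in the knockout lines. The summed level of its 34 gene desert regions was 110.1, 86.2, 163 and 122 CPM in the knockout libraries and 24.7, 27.0, 27.4 and 23.9 CPM in the wild-type libraries. All knockout libraries were above all wild-type libraries. The gap between Tmem229a and Gpr37, an orphan receptor gene of glia (chromosome 6), held 14 of 27, all higher, with sums of 201, 156, 151 and 151 CPM in the knockout libraries, and 81.2, 77.7, 16.4 and 15.6 CPM in the wild-type libraries. The gap between the sorting receptor gene Sorcs1 and Ins1 (chromosome 19) held 13 of 27, and that between Aebp2 and the phosphodiesterase gene Pde3a (chromosome 6) 12 of 50, all higher. Line 73 was nearly without counts over 6 neighbouring regions in the gap of Tmem229a (12 counts) and over 6 in that of Sorcs1 (9 counts). Whether DNA is missing there was not tested. As a whole the Aebp2 gap did not follow the genotype, with line sums of 366, 228, 150 and 242 CPM, so that line 113 lay below line 73. Line 112 was higher over all of chromosome 6, as given with the chromosomes, and the part of this in both gaps named from that chromosome was not tested. All 8 tested regions between Brinp1 and Cdk5rap2 (chromosome 4) were separated and higher, with line sums of 54.5, 49.8, 4.37 and 4.71 CPM.

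In the other direction, the gap between Gadd45g, a stress-induced growth arrest gene, and Diras2 (chromosome 13) held 16 of 44, all lower in the knockout lines. Its summed level was 91.7, 149.6, 91.1 and 103 CPM in the knockout libraries and 315, 316, 425 and 361 CPM in the wild-type libraries. The groups of libraries did not overlap. The gap between Mctp2 and Rgma, a guidance molecule gene (chromosome 7), held 12 of 49, that between Bod1l and Gm46911 (chromosome 5) 11 of 25, and that between En1 and Insig2 (chromosome 1) 9 of 20. The gap between Ptprd and the pigment enzyme gene Tyrp1 (chromosome 4) held 6 of 9, all higher in the knockout lines, with line sums of 34.0, 74.9, 19.2 and 17.3 CPM. No region of these gaps passed the genotype test with lines as units (adjusted p 0.143 or more, edgeR quasi-likelihood test).

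**Figure D5:**
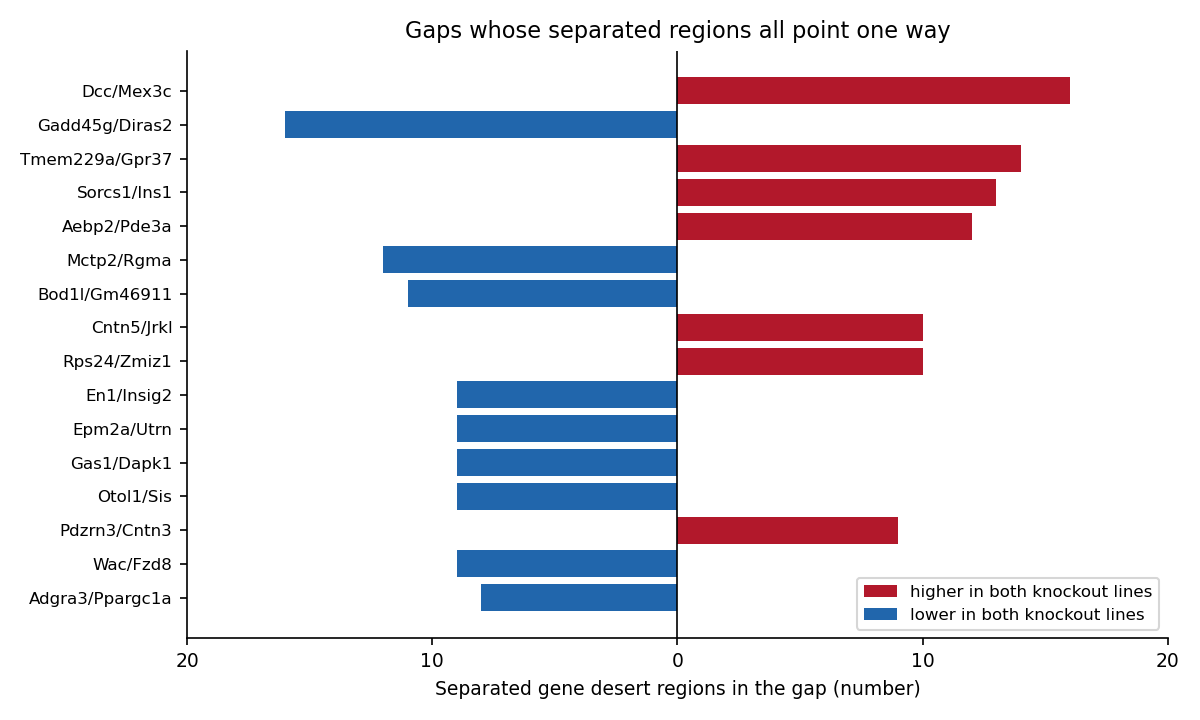
Number of separated gene desert regions (bars, linear axis) in the 16 gaps with the most among those that hold a single direction, named by the flanking protein-coding genes. Bars to the right count regions higher and bars to the left regions lower in both knockout lines, and the longest bars, of 16, belong to Dcc/Mex3c and Gadd45g/Diras2.

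Other gaps were mixed. The gap with the most separated regions, between Myc and Gsdmc (chromosome 15), held 9 higher and 11 lower among 102 tested, and its summed level was 405 to 478 CPM in the knockout libraries and 532 to 708 CPM in the wild-type libraries. Its strongest region (chr15:62328218-62329355, 337857 bp from Myc) had 8.84, 8.62, 12.7 and 13.6 CPM in the knockout libraries and 30.5, 25.5, 58.4 and 46.1 CPM in the wild-type libraries, with no overlap (log2 difference -1.89 ± 0.68 SE, adjusted p 0.190, edgeR quasi-likelihood test). The gap between Slc10a2 and Efnb2 held the most gene desert regions, 114, with 2 separated higher and 16 lower. The gap between Phlda1 and Krr1 had 12 higher and 6 lower, and that between Nr2f1, an orphan nuclear receptor gene of the neural crest, and Arrdc3 had 3 higher and 14 lower.

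By chromosome, the split was uneven. On chromosome 6, 132 of 915 tested gene desert regions were separated and higher (14.4%) and 33 lower (3.61%), and the other regions of that chromosome had 13.3% and 3.16%. On chromosome 19, 45 of 282 were higher (16%) and 12 lower (4.26%), while its other regions had 7.40% and 6.30%. Many of these 45 lay close together: the neighbouring gaps of Sorcs3 and Sorcs1, Sorcs1 and Ins1, and Ins1 and Xpnpep1 held 6, 13 and 5 of them. With the 10 Mb offset the counts on chromosome 6 became 60 higher and 88 lower, which turned the direction, and those on chromosome 19 became 38 and 18. Line 112 was higher over chromosome 6 as a whole: the median log2 ratio of its level to the mean of the lines was 0.57 in the gene deserts and 0.57 in the other regions there. Copy number was not measured here, and its part in this was not tested.

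Gaps next to genes of chosen lists were then counted. For comparison, 8.36% of all tested gene desert regions were separated and higher and 9.52% lower, with 7.64% and 7.41% over all regions. Regions named from the lists were the strongest of their gap or had its smallest p. For the latter, a lack of overlap between the genotypes partly follows from the choice. Of 23 genes of the melanocyte lineage and pigmentation, 15 flanked a gene desert, with 372 tested regions, of which 38 were separated and higher (10.2%) and 30 lower (8.06%), and the median log2 difference was -0.02. At chr2:45629363-45630128, 511921 bp from Zeb2, a regulator of melanocyte differentiation, the knockout libraries had 17.7, 10.2, 29.0 and 14.8 CPM and the wild-type libraries 1.81, 1.35, 0.256 and 0 CPM. At chr11:113131872-113132816, in the gap after the neural crest gene Sox9, they had 25.1, 18.5, 31.3 and 19.4 CPM against 2.71, 1.52, 3.33 and 2.50 CPM. On the other side of Sox9, chr11:112620991-112621908 (160302 bp away) went the other way, with 6.75, 8.93, 4.08 and 4.84 CPM against 31.8, 28.5, 43.8 and 47.5 CPM. The groups did not overlap at any of the 3 regions, and their adjusted p was 0.143 (edgeR quasi-likelihood test). The gap before Sox2, between Dnajc19 and Sox2, held 6 separated regions, all lower in the knockout lines.

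Line 73 lacked signal at the strongest region of several of these gaps. At chr11:112587337-112588752, 193458 bp from Sox9, it had 2.56 and 2.50 CPM, against 24.3 to 43.1 CPM in the other libraries. At chr3:35225328-35226017, between Sox2 and Atp11b, it had 1.54 and 1.11 CPM against 10.8 to 59.4 CPM, and at chr2:45356571-45357945 beside Zeb2 1.28 and 1.39 CPM against 18.4 to 57.1 CPM. Near Pax3, a neural crest regulator upstream of Mitf, the strongest gene desert region (chr1:77846060-77846575) had the reverse pattern, with 23.0 and 23.9 CPM in line 73 and 0.453 to 2.77 CPM elsewhere. The strongest region at an end of Pax3 itself was low in line 73, at 6.28 CPM against 30.85 to 53.57 CPM. Of the markers given above, Sox10, Pax3 and Ednrb had the like pattern of low levels in line 73 alone. Dct and Mlana were also low in line 119, and whether the markers bear on these regions was not tested.

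Of 48 developmental regulators, 43 flanked a desert, with 1391 tested regions, 106 separated and higher (7.62%) and 137 lower (9.85%). Examples were chr3:143912339-143913753, 274777 bp from the LIM-domain gene Lmo4, with 2.72 to 4.31 CPM in the knockout libraries and 22.1 to 33.8 CPM in the wild-type libraries, and chr12:25244587-25245804, 148495 bp from Id2, an inhibitor of helix-loop-helix factors, with 4.89 to 5.56 CPM against 16.04 to 49.2 CPM. In the higher direction, chr4:56411245-56411767 in the gap of the pluripotency factor gene Klf4 and Actl7b had 4.31 to 7.499 CPM in the knockout libraries and 0.256 to 0.517 CPM in the wild-type libraries (log2 difference 3.98, adjusted p 0.143, edgeR quasi-likelihood test). A region 111887 bp from Nr2f1 (chr13:78310760-78311365) had 4.11 to 14.9 CPM against 0.169 to 0.646 CPM. The groups did not overlap at these 4 regions. Of 64 neuronal adhesion and synapse genes, 57 flanked a desert, with 1354 tested regions, 138 higher (10.2%) and 92 lower (6.79%). The gap of Flrt2 and Galc held 14 higher and 1 lower, and the gap of Dsel and Cntnap5a, a contactin-associated gene, 10 higher and 3 lower. Beside Cdh9, a cadherin gene (chr15:16437229-16437736), the knockout libraries had 0 to 0.308 CPM, line 119 had 7.63 and 7.77 CPM and line 73 had 1.79 and 1.39 CPM.

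Few genes of the STAT3 pathway bordered deserts. They were 5 of 24, with 188 tested regions, 16 separated and higher (8.51%) and 18 lower (9.57%). The gap of Myc and Gsdmc, also counted for the developmental regulators, held 102 of the tested regions, 9 higher and 11 lower. The gap of A1bg and Myc held 44, with 6 higher and 2 lower. Most regions of this list thus lay on either side of Myc. A separated lower region lay 194116 bp from Bcl6, a repressor gene that STAT3 activates in some cells (chr16:24182982-24183549). It had 2.16 to 3.85 CPM in the knockout libraries and 16.9 to 21.3 CPM in the wild-type libraries. Between Dnajb6 and the cytokine gene Il6, chr5:29894481-29895050 had 0 to 1.16 CPM against 3.59 to 7.77 CPM, without overlap. Others were higher. In the gap of 1600014C23Rik and Vegfa, which encodes an angiogenic growth factor, chr17:45834325-45835127 had 9.08, 4.62, 21.1 and 23.2 CPM in the knockout libraries and 3.49, 1.35, 1.54 and 1.11 CPM in the wild-type libraries (log2 difference 2.87, adjusted p 0.165, edgeR quasi-likelihood test). At chr15:62490615-62491115, 500254 bp from Myc, a growth regulator gene, they had 3.72, 2.46, 3.17 and 2.42 CPM against 0.259, 0.169, 0.512 and 0 CPM. No library had a peak there, and the counts were few, at 16, 8, 14 and 10 against 2, 1, 2 and 0. Neither region showed an overlap between the genotypes. Of 6 C/EBP genes only Cebpb bordered a desert, with 7 tested regions, none separated, and the strongest (chr2:167800056-167801242) had 11.7 to 20.6 CPM in the knockout and 18.1 to 22.02 CPM in the wild-type libraries, which overlapped. In none of the 5 lists did a region pass the genotype test with lines as units (edgeR quasi-likelihood test), and the unadjusted counts over all gene desert regions are given above.

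At the start of noncoding genes the same range of patterns was seen. Of the 212 tested regions that overlap a promoter window, 16 were separated and higher (7.55%) and 17 lower (8.02%). Over all tested gene desert regions the shares were 8.36% and 9.52%, and over all regions 7.64% and 7.41%. At 2210408F21Rik line 112 had 56.3 and 45.9 CPM, line 113 had 29.7 and 32.4 CPM, line 119 had 10.6 and 13.8 CPM, and line 73 had 44.8 and 45.0 CPM. Line 119 was lowest and line 73 was near line 112, so the genotypes overlapped. At 1700019J19Rik the knockout libraries had 28.4, 20.9, 25.4 and 29.3 CPM, line 119 had 14.7 and 14.2, and line 73 had 2.05 and 1.94 CPM, so that the groups did not overlap (adjusted p 0.349 for the genotype, edgeR quasi-likelihood test). At Gm35551, whose window holds the STAT letters, the knockout libraries had 5.59, 4.31, 4.30 and 4.84 CPM, line 119 had 11.8 and 11.7, and line 73 had 39.4 and 38.1 CPM (adjusted p 0.181). The AP-1 letters stood in 5 of the 12 desert windows whose regions were lower in both knockout lines and in 0 of the 13 whose regions were higher, a description of few windows.

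The region of Mir802, whose miRNA is known for its part in liver and metabolic control (chr16:93369280-93369899, between the hematopoietic regulator gene Runx1 and Setd4), had 10.01, 9.54, 19.03 and 10.9 CPM in the knockout libraries and 0.646, 0.169, 1.28 and 0.278 CPM in the wild-type libraries. The groups did not overlap, and the log2 difference was 4.33 ± 0.985 SE (adjusted p 0.143, edgeR quasi-likelihood test). The region of Mir137 (chr3:118433556-118434064), whose miRNA is known to repress Mitf, was low in all lines, with line means of 2.01, 2.46, 4.12 and 2.38 CPM, and was not separated. In the miR-344 cluster, between Gm51483 and the imprinted gene Ndn, the region of Mir344d-2 (chr7:61685151-61685743) had 12.1, 6.46, 15.9 and 17.2 CPM in the knockout libraries and 0.129, 0.169, 3.59 and 5.56 CPM in the wild-type libraries, and it was separated and higher (adjusted p 0.268 for the genotype). The region of Mir344b (chr7:61790398-61790903) was highest in line 73, with 6.91 and 8.61 CPM against 0 to 2.18 CPM elsewhere. Line 119 had means of at most 0.363 CPM at all 7 regions of the cluster.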

How the data were processed

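ATAC-seq had been done on 8 libraries, 2 from each of 4 mouse melanoma lines, and the sources used here do not give the role or settings of each upstream tool. The authors' deposited table held a raw read coverage count per library for each of 148664 shared regions. It is not stated whether reads, fragments or Tn5 cuts were counted or how duplicates were treated. The authors' deposited peak lists, 1 per library, gave a score, a fold enrichment ratio and −log10 p and q values for each peak. Bowtie2 2.2.4, Picard 1.118, MACS2 2.1.1.20160309 and the mouse build GRCm38 are named per the submitters' processing notes, and long fragments were removed before sequencing, per the labels' protocols.

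Regions were placed against 21887 protein-coding genes of RefSeq (GRCm38.p6). All tests were fitted on the whole table after a filter on low counts (edgeR filterByExpr, minimum count 10 and minimum total 15) and adjusted by Benjamini-Hochberg over 140329 regions, with a threshold of 0.05. The genotype was tested by edgeR 4.0.16 (TMM scaling, robust quasi-likelihood test, R 4.3.3) on counts summed per line, and pairs of lines on the 8 libraries. limma 3.58.1 and DESeq2 1.42.0 gave alternatives. CPM used TMM library sizes, and log2 levels had 0.5 CPM added. A peak was assigned to a region it overlapped by at least 1 bp. Replicate numbers did not pair the libraries of different lines (correlations of deviations from -0.0349 to 0.0107). Intervals of ratios cover counting error only.

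Named regions were the 5 ranked first by p in each direction, the 8 strongest, the 5 farthest, the 5 most even, those with the largest difference of 1 line from all others, the gaps with most tested or most separated regions, and in each list of genes the strongest region and the one with the smallest p of its largest gaps. The gaps of a single direction, the promoter windows and the miRNA regions were chosen after the values were seen. The members and lists were chosen with earlier results of these data known. Genome sequence of the regions themselves was not used here. The regions named for the lowest level in line 119 are not reported here.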

Additional observations from a re-analysis of the deposited data

Results flagged for a closer look

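Among 108 sets of the 4 libraries of a genotype, 5 held a library far from the other 3, and chance gives about 1 in 20. At chr6:9552991-9553607, between Nxph1 and Ndufa4, line 112 replicate 2 had 10.5 CPM and the other knockout libraries had 18.4 to 19.8 CPM. At chr6:127330096-127330676, between the cyclin gene Ccnd2 and the nearer gene Parp11, the same library had 40.3 CPM against 42.8 to 43.3 CPM. At the region of Mir802, line 113 replicate 1 had 19.03 CPM against 9.54 to 10.9 CPM. Line 113 replicate 2 stood apart at the regions of Mir344d-3, with 13.55 CPM against 5.23 to 6.34 CPM, and of Mir344c, with 3.15 CPM against 1.81 to 1.86 CPM. In both cases on chromosome 6 the lowest value belonged to the shallowest library.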

How the results depend on the processing

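With lines as units no gene desert region differed by genotype in the edgeR quasi-likelihood test, and this count depended on the method. Shares of all regions are given in parentheses. DESeq2 called 1236, or 12.4% (6.45%). limma-voom with lines as a random effect called 54, 14 higher and 40 lower, or 0.333% (0.339%). edgeR on regions under a peak called 51, 43 higher and 8 lower, or 0.344% (0.163%). With libraries as units, which ignores that 2 libraries share a line, it was 4730, or 29.2% (22.7%). Leaving out each library in turn gave 0 to 166, with the 166 without line 112 replicate 1 (110 higher and 56 lower), which leaves that line its shallowest library, or 1.03% (0.453%). With the replicate block it was 3718, or 22.9% (17.3%), and in the fits of line pairs the replicate block gave 90.4% for any pair, 17.7% for separated regions, and 50.5%, 50.7%, 63.9%, 57.8%, 21.0% and 57.5% for pairs 112 and 119, 112 and 73, 113 and 119, 113 and 73, 112 and 113, and 119 and 73. The numbers did not pair the libraries.

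For called shares, again with all regions in parentheses, DESeq2 gave 30.6% (25.7%) for 112 against 119, 33.4% (33.3%) for 112 against 73 and 13.6% (15.3%) for 112 against 113. A filter at a mean of 50 counts gave 81.6% (57.4%) for 112 against 73, 40.2% (30.9%) for 112 against 113, and 29.3% (17.7%) separated, 85 higher and 246 lower. Regions under 1 of the 20000 highest scoring peaks of a library, an alternative chosen after seeing the data, gave 36.9% (23.8%) for 112 against 113 and 32.8% (15.1%) separated, 619 higher and 975 lower, and turned the median of 112 against 113, relative to all regions, to -0.151. Here only the gene desert regions were restricted to such peaks. The shares and median of all regions still covered weak regions, so the sets differ in signal as well as in position. The other medians relative to all regions kept their direction under the alternatives run. They ranged from 0.0595 (distance over 50 kb) to 0.916 (mean of 50 counts) for 113 against 73, from 0.36 to 1.07 for 112 against 73, from 0.617 to 1.74 for 119 against 73, from -1.0 to -0.321 for 112 against 119 and from -1.04 to -0.632 for 113 against 119. The difference in the share of counts ranged from -1.532 to -0.1592 points and that in the share of peaks from -3.776 to -0.4644. Leaving out 1 library at a time gave 86.4% to 90.9% for any pair, 38.1% to 51.8% for 112 against 119, 41.0% to 52.8% for 112 against 73, 52.4% to 67.6% for 113 against 119, 51.4% to 60.3% for 113 against 73, 10.8% (without line 113 replicate 1) to 21.1% for 112 against 113, 46.9% to 60.4% for 119 against 73, 13.5% to 17.6% separated, and differences of -1.162 to -0.9995 points in the share of counts and -3.331 to -2.075 points in the share of peaks. The causes were not tested. Scaling by total counts moved the median of all regions by over 0.1 (log2) in 5 of the 6 pairs, at most to 0.405 for 112 against 113, where gene desert regions had 0.584. Low counts per region, with library medians of 5 to 22, limit what a single gene desert region can show.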

Other observations

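In some gene deserts a line was nearly without counts over several neighbouring regions, a pattern singled out after its values were seen. There were 47 stretches of at least 6 consecutive autosomal regions of the table in which a line had at most 3 counts in each region. Line 73 had 32 of them. Of all 47 stretches, 22 held at least 1 gene desert region. Beside Hs3st1, which encodes a heparan sulfate sulfotransferase (chr5:39981373-40250761), line 73 had 11 counts over 9 gene desert regions, against 73, 189 and 162 counts in lines 112, 113 and 119. Beside Slitrk6, a neuronal membrane protein gene (chr14:110454448-110561409), it had 4 counts over 6 regions, against 103, 343 and 827. Between Etaa1 and the homeobox gene Meis1 (chr11:18279421-18575846) line 113 had 14 counts over 8 regions, against 67, 504 and 167 in lines 112, 119 and 73. Stretches of line 73 also lay in gaps named above, those of Tmem229a and Gpr37, of Sorcs1 and Ins1, and of Satb1 and Kcnh8. Whether DNA is missing in these stretches, or is present and closed, was not tested.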
